A study of Homo sapiens with 16 samples.

Results

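The unfolded protein response sensors and transcription factors were 10 genes, named by symbol and matched through their Ensembl gene identifiers: ERN1, XBP1, ATF6, ATF6B, EIF2AK3, CREB3, CREB3L2, TRAF2, BHLHA15 and RTCB. All 10 were found once among the 60662 genes in the count tables. The values came from RNA sequencing of Jurkat E6-1, a human T cell line in long use, of wild-type genotype and classed by the labels as lymphoma. The 8 control libraries were collected at 0 h without treatment. The 8 peroxide libraries came from the same wild-type line after a move into phosphate-buffered saline with hydrogen peroxide at 10 µM, collected at 4 h. The deposited tables are named for batch 1 or batch 2, and each batch holds 4 controls and 4 peroxide libraries. The sources used here do not say what a batch was. Cells kept in saline alone for 4 h were not analysed here, and the effects of time, saline and peroxide cannot be told apart. The labels number the libraries as biological replicates of 1 cell line.

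The unfolded protein response is set off when unfolded proteins build up in the endoplasmic reticulum (ER), and it has 3 sensors that sit in the ER membrane. The first is IRE1α, the kinase and endoribonuclease encoded by ERN1, which cuts a short segment out of XBP1 mRNA. The ends are joined by the RNA ligase RTCB, and the shift in reading frame gives the active factor XBP1s, which drives genes of ER folding, transport and degradation. IRE1α also binds the adaptor TRAF2, which links it to stress kinases. The second sensor is PERK, encoded by EIF2AK3, which phosphorylates the initiation factor eIF2α, slows translation and favours translation of ATF4. The third is ATF6, which with its paralog ATF6B moves to the Golgi apparatus and is released there by the proteases encoded by MBTPS1 and MBTPS2. CREB3 and CREB3L2 are membrane-bound factors processed in the same way. BHLHA15, also called MIST1, is a factor of secretory cells and a known XBP1 target. In lymphocytes XBP1 is best known for its part in the making of plasma cells.

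The stretch by which the 2 forms of XBP1 mRNA differ is shown first. The deposited counts are sums over a whole gene and do not separate these forms. GENCODE 29 places the stretch as a gap of 26 bases at chr22:28796122-28796147 on the minus strand of GRCh38. The capitals mark this annotated gap, with 20 bases of exon on either side. The letters GCAGCA stand both just before the capitals and at their end. The 2 sequences therefore do not fix where IRE1α cuts, and the capitals are not its cut sites.
XBP1-201, unspliced: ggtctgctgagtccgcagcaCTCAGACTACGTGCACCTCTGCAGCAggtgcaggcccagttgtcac
XBP1-202, spliced: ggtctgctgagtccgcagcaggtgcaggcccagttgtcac
Values below for XBP1 are therefore for the gene and say nothing of splicing.

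Promoters of all 10 genes were found in RefSeq's table for GRCh38.p14, as windows from 250 bases before to 50 bases after the annotated start. They were searched on both strands for 6 motifs. The ER stress response element (ERSE, which is CCAAT, a gap of any 9 bases and CCACG), which ATF6 is known to bind with NF-Y, was found in 0.0769% of 35116 promoters. Among the 10 genes it was in the XBP1 promoter only, 52 bases before the start. The bases before the start are shown in the direction of transcription, with the motif in capitals, because XBP1 had the largest rise among the 9 genes with enough reads to be tested.
XBP1, chr22:28800570-28800819, minus strand: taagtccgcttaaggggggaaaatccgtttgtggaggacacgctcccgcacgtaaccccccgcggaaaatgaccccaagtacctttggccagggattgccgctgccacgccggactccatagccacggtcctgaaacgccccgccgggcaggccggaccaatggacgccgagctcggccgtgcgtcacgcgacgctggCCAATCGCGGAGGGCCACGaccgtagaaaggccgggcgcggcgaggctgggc
The cyclic AMP response element (CRE, TGACGTCA), bound by many factors of the CREB and ATF class, was in 1.85% of promoters and, among the 10 genes, in that of CREB3L2 only, 179 bases before the start.
CREB3L2, chr7:138002087-138002336, minus strand: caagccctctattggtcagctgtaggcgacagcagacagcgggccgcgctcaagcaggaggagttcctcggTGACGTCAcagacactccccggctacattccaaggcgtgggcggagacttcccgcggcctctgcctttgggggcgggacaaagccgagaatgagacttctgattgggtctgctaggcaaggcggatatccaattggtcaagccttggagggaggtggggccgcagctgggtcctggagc
The AP-1 motif TGANTCA (7.71% of promoters) was in the ATF6B promoter, 107 bases before the start. The C/EBP-ATF response element TGATGNAA (3.62%) was in a second annotated CREB3L2 promoter, 17 bases after its start. Neither ERSE-II (ATTGG, any base and CCACG, 0.0541%) nor the unfolded protein response element (UPRE, TGACGTGG, 0.729%) was in any of the windows of the 10 genes. These matches describe the letters of the windows and not the binding of a factor.

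Reads counted in genes ranged from 5556553 to 15720881 per library. Reads not aligned uniquely made up 30.2% to 47.2% of the reads in controls and 33.3% to 45.8% in peroxide libraries. All 10 T cell markers looked at (such as CD3E, CD2 and LCK) averaged 1 CPM or more (read counts scaled to library size with TMM factors) in both groups, and their summed level was 2781 to 3673 CPM in controls and 2802 to 3677 CPM in peroxide libraries. Of 6 B cell markers, 2 averaged 1 CPM or more in each group, with a summed level of 39.5 to 56.7 CPM in controls and 37.1 to 61.4 CPM in peroxide libraries, while MS4A1, CD79B and PAX5 were under 1 CPM. Of 6 plasma cell markers, 2 averaged 1 CPM or more in controls and 3 in peroxide libraries, MZB1 among them, with a summed level of 278 to 420.3 CPM and 232 to 388 CPM, while JCHAIN, TNFRSF17 and IRF4 were under 1 CPM in both groups. Summed over 5 monocyte markers, the level was 0.125 to 0.943 CPM in controls and 4.02 to 13.3 CPM in peroxide libraries, and its part in the results was not tested. In these bulk samples, fewer cells of a type and less RNA per cell cannot be told apart.

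In peroxide libraries, XBP1 mRNA was 2.20-fold higher than in controls, EIF2AK3 was 1.23-fold higher, and ATF6 and CREB3L2 were 16.8% and 18.6% lower. Of the 10 genes, 9 had enough reads to be tested, and BHLHA15 did not. The test was edgeR's quasi-likelihood test, with a term for batch. With p-values adjusted over 14092 genes, 2 of the 9 were higher, 2 were lower and 5 did not pass an adjusted p of 0.05. Over all genes tested, 48.3% were called, 24.1% as higher and 24.3% as lower, so 4 of 9 (44.4%) is close to the background. The median log2 fold change was -0.10 for the 9 genes and -0.01 for all genes. When libraries were scaled by total counts in place of TMM factors, 1 of the 9 was higher and 6 were lower, and over all genes 2822 were higher and 4375 lower in place of 3391 and 3419. Without 1 library, the number of the 9 called higher was 1 (without control 1, control 4, peroxide 1 or peroxide 6, which ended the call of EIF2AK3) to 3. It was also 1 without both control 1 and peroxide 5, the libraries with the largest shares of reads not aligned uniquely.

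**Figure D1:**
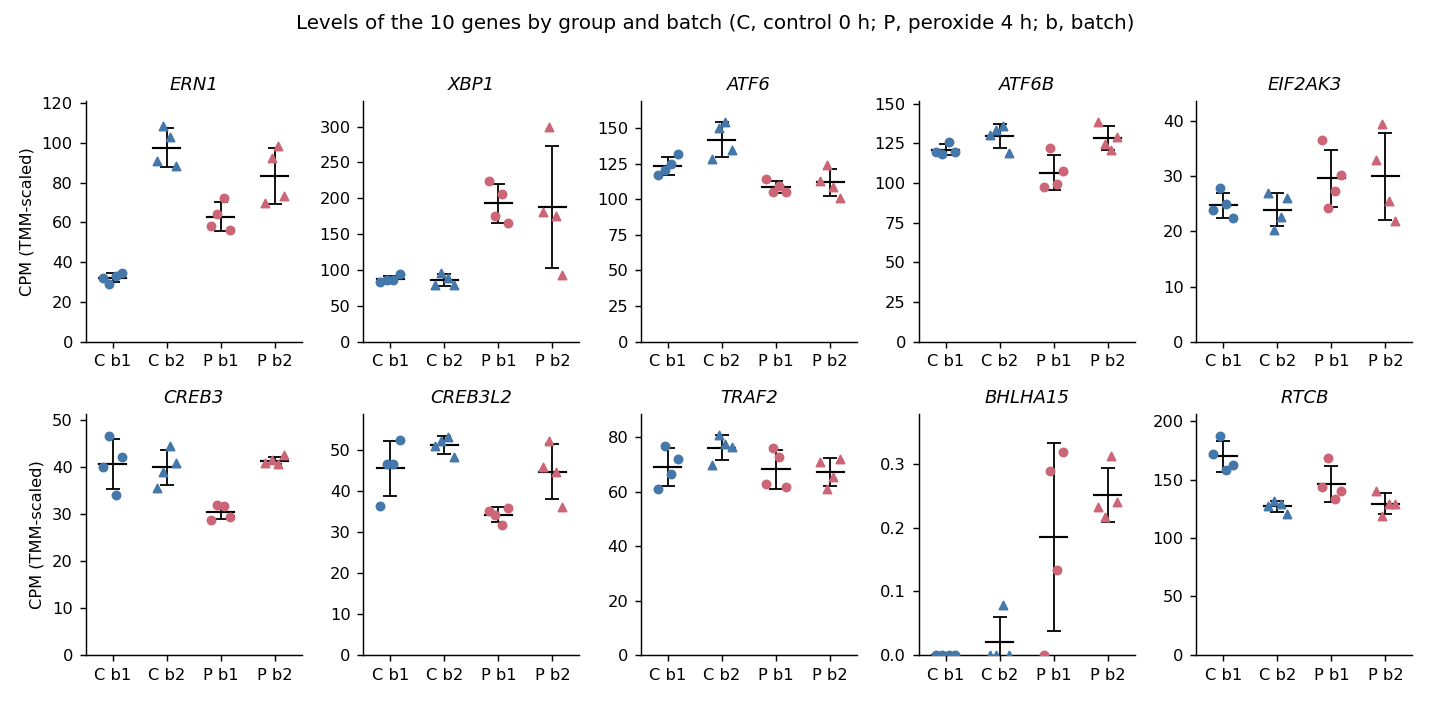
Level of each of the 10 genes in every library, in TMM-scaled CPM on a linear axis from 0, with controls in blue and peroxide libraries in red, circles for batch 1 and triangles for batch 2. Horizontal lines are means and bars are SD over 4 libraries; XBP1 lay at 78.7 to 95.7 CPM in controls and at 93.3 to 299.9 CPM in peroxide libraries, and ERN1 in controls lay at 29.3 to 34.4 CPM in batch 1 and at 88.2 to 108 CPM in batch 2.

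The order of levels was read per kilobase of exon (CPM per kb), since longer genes collect more reads. Lengths were all annotated exon bases of a gene in GENCODE 29, which may not be the annotation used for counting. Only the identifiers of XBP1 and BHLHA15 matched it to the version. The order rests on these lengths. ATF6 and ATF6B had means of 132 and 125 CPM in controls, with lengths of 7.89 and 3.63 kb. In controls the ligase gene RTCB was highest at 50.4 ± 8.34 CPM per kb (SD, n = 8). It was followed by ATF6B at 34.5 ± 1.98, XBP1 at 28.6 ± 2.07, CREB3 at 21.1 ± 2.22, TRAF2 at 19.8 ± 1.81 and ATF6 at 16.8 ± 1.68 CPM per kb. ERN1 at 5.97 ± 3.27, CREB3L2 at 5.49 ± 0.62 and EIF2AK3 at 4.48 ± 0.46 CPM per kb came next, and BHLHA15 was last at 0.0123 ± 0.0348. The place of ERN1 differed by batch, with 2.96 ± 0.20 CPM per kb in batch 1 controls (SD, n = 4), below CREB3L2 (5.17) and EIF2AK3 (4.55), and 8.99 ± 0.88 in batch 2 controls, above both. With these lengths, most neighbours in this order kept their places in all 8 controls. The exceptions were CREB3 over TRAF2 in 5 of 8, ERN1 over CREB3L2 in 4 of 8 and CREB3L2 over EIF2AK3 in 7 of 8. In peroxide libraries XBP1 was first at 62.8 ± 19.4 CPM per kb, ahead of RTCB at 46.8 ± 4.99.

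ERN1, the IRE1α sensor gene, differed between the batches before any treatment. The batch 1 controls had 31.9, 29.3, 33.2 and 34.4 CPM, and the batch 2 controls had 91.0, 108, 103 and 88.2 CPM. The 2 sets of controls did not overlap, and the second was 3.02-fold higher (log2 difference 1.59 ± 0.08 SE, adjusted p = 1.21e-08). Over all genes, 45.8% were called between the control batches, and 3 of the 9 genes were (ERN1, ATF6 and RTCB).

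The peroxide libraries had 58.4, 64.3, 72.3 and 56.2 CPM of ERN1 in batch 1 and 69.8, 92.3, 98.5 and 73.3 CPM in batch 2. In batch 1 every peroxide library was above every control, and in batch 2 there were 2 within the control range and 2 below it. ERN1 rose in batch 1 by 0.96 ± 0.10 on the log2 scale (adjusted p = 4.95e-06), while in batch 2 the difference was -0.23 ± 0.11 (adjusted p = 0.112). The interaction of batch and group was called at -1.18 ± 0.16 (adjusted p = 0.000209), where 4.88% of all genes were called, and ERN1 was the only one of the 9 to pass. Over both batches ERN1 went from 64.9 ± 35.6 to 73.1 ± 15.2 CPM, which is 0.33 ± 0.15 on the log2 scale and missed the threshold (adjusted p = 0.0782). This value passed without control 6 (0.39, adjusted p = 0.0360), control 7 (0.38, adjusted p = 0.0477), peroxide 5 (0.42, adjusted p = 0.0242) or peroxide 8 (0.41, adjusted p = 0.0310), and with DESeq2 (0.36, adjusted p = 0.0409).

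EIF2AK3, the PERK sensor gene, had 20.3, 24.4 and 27.8 CPM as the lowest, median and highest control values and 21.9, 28.7 and 39.5 CPM in peroxide libraries. In 4 of the 8 peroxide libraries, 2 in each batch, it was above every control, and the others lay within the control range. It rose by 0.30 ± 0.11 on the log2 scale (adjusted p = 0.0280), with similar values of 0.26 ± 0.13 in batch 1 and 0.34 ± 0.16 in batch 2, neither of which passed alone (adjusted p = 0.128 and 0.110). The call was lost without control 1, control 4, control 6, control 7, peroxide 1, peroxide 5 or peroxide 6, left out one at a time, where the log2 value was 0.22 to 0.29. It was also lost with total-count scaling (0.24, adjusted p = 0.0687). In GENCODE 29, 15.1% of its exon bases overlap genes on the opposite strand, and the sources used here do not say whether the counting used strand.

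ATF6, the third sensor, had 117, 129.9 and 154 CPM in controls and 101, 109 and 124 CPM in peroxide libraries (lowest, median and highest). In 7 of 8 peroxide libraries it was below every control, and within each batch the groups did not overlap. It fell by 0.27 ± 0.06 on the log2 scale (adjusted p = 0.000688). The difference was -0.34 ± 0.08 in batch 2 (adjusted p = 0.00376) and -0.19 ± 0.08 in batch 1, where it did not pass alone (adjusted p = 0.0719).

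Its paralog ATF6B had 118, 123 and 136 CPM in controls and 97.2, 122 and 138 CPM in peroxide libraries, so the groups overlapped. Within batch 1, 3 of 4 peroxide libraries were below every control. Within batch 2, 1 was above every control and 3 lay within the control range. The log2 difference of ATF6B was -0.10 ± 0.06 (adjusted p = 0.166), and -0.16 ± 0.06 with total-count scaling (adjusted p = 0.0266). In GENCODE 29, 9.92% of its exon bases are shared with genes on its own strand, TNXB among them. The ratio of ATF6 to ATF6B reads within a library, which does not depend on scaling, was lower in peroxide libraries by 0.16 ± 0.08 (SE) on the log2 scale. It did not pass an exact permutation test (two-sided p = 0.0667, 0.133 adjusted over 4 ratios), except without peroxide 1 (-0.21, adjusted p = 0.0429). Within batches the difference was -0.000125 in batch 1 and -0.33 in batch 2.

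XBP1, the factor downstream of IRE1α, had 78.7, 85.7 and 95.7 CPM as the lowest, median and highest control values. In the peroxide libraries it had 225, 175, 206 and 165 CPM in batch 1 and 181, 299.9, 175 and 93.3 CPM in batch 2. All but peroxide 8 were above every control, and peroxide 6 was the highest. XBP1 went from 86.5 ± 6.25 to 190.1 ± 58.6 CPM (SD, n = 8) and rose by 1.13 ± 0.14 on the log2 scale (adjusted p = 1.37e-06). It rose by 1.14 ± 0.10 in batch 1 and by 1.12 ± 0.24 in batch 2, and it was called in each alone (adjusted p = 6.55e-07 and 0.00198). The log2 value was 0.99 without peroxide 6, 1.24 without peroxide 8 and 1.13 without control 1 and peroxide 5 together.

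**Figure D2:**
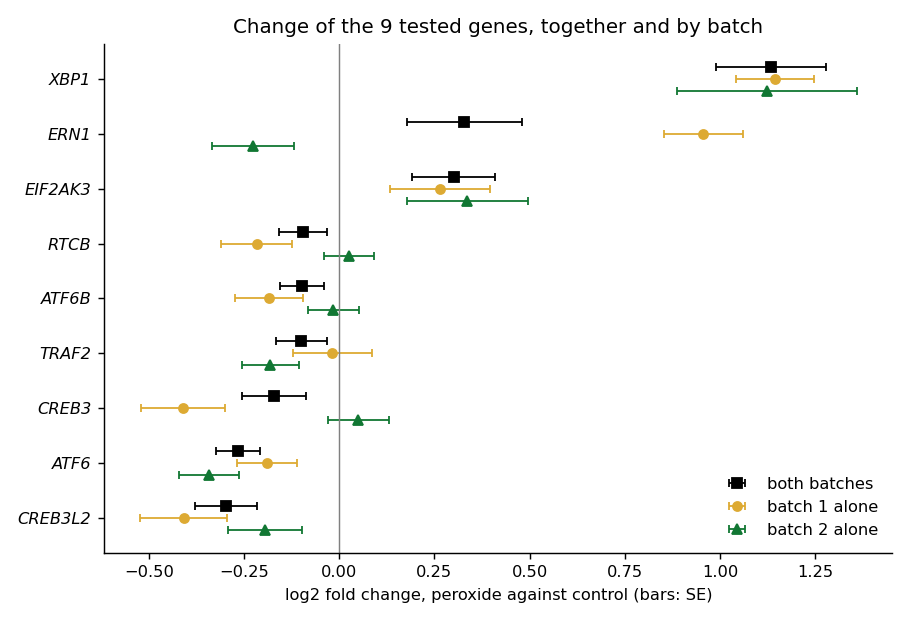
Log2 fold change of peroxide against control for the 9 tested genes, with SE bars, from both batches together (black squares), batch 1 alone (gold circles) and batch 2 alone (green triangles). XBP1 stands near 1.13 in all 3 fits, and ERN1 stands at 0.96 in batch 1 and at -0.23 in batch 2.

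XBP1 and ERN1 reads were compared within each library. The log2 ratio of XBP1 to ERN1 was 1.38, 1.55, 1.37 and 1.45 in batch 1 controls and -0.21, -0.18, -0.21 and -0.15 in batch 2 controls. In peroxide libraries it was 1.94, 1.44, 1.51 and 1.56 in batch 1 and 1.37, 1.70, 0.83 and 0.35 in batch 2. The control batches were far apart, while the ranges of the peroxide batches overlapped. The difference between groups, in a test with no batch term as for all 4 ratios, was 0.71 ± 0.36 (two-sided exact permutation p = 0.0650, adjusted 0.133). Within batches it was 0.18 in batch 1 (exact permutation p = 0.171, adjusted 0.343) and 1.25 in batch 2 (exact permutation p = 0.0286, the smallest that 4 against 4 allow, adjusted 0.114). The log2 ratio of ERN1 to EIF2AK3 differed by 0.09 ± 0.36 (exact permutation p = 0.797, adjusted 0.797). It was higher by 0.71 in batch 1 (exact permutation p = 0.0286, adjusted 0.114) and lower, at -0.53, in batch 2 (exact permutation p = 0.114, adjusted 0.114).

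RTCB and TRAF2, the ligase and the adaptor of the IRE1α branch, were near their control levels. RTCB had 121, 145 and 187 CPM in controls and 119, 137 and 169 CPM in peroxide libraries, and the ranges overlapped. Within batch 1, 3 of 4 peroxide libraries were below every control. Within batch 2, 1 was above every control, 1 was below and 2 lay within the control range. Its log2 difference was -0.10 ± 0.06 (adjusted p = 0.224), with -0.22 in batch 1 and 0.03 in batch 2, and among controls it was lower in batch 2 by 0.42 ± 0.07 (adjusted p = 0.000264). TRAF2 had 61.1, 74.2 and 81.0 CPM in controls and 61.0, 68.2 and 76.0 CPM in peroxide libraries. Its log2 difference was also -0.10, with an SE of 0.07 (adjusted p = 0.227). It was -0.02 in batch 1 and -0.18 ± 0.07 in batch 2 (adjusted p = 0.0696). In batch 2, 2 of 4 peroxide libraries had less TRAF2 than every control. With total-count scaling both genes passed as lower, RTCB at -0.16 (adjusted p = 0.0411) and TRAF2 at -0.16 (adjusted p = 0.0492).

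CREB3L2 and CREB3, the membrane-bound factors of the CREB3 family, were lower in batch 1. CREB3L2 had 36.4, 49.5 and 53.1 CPM in controls and 31.6, 35.9 and 52.2 CPM in peroxide libraries. In 5 of 8 peroxide libraries it was below every control, including all 4 of batch 1. It fell by 0.30 ± 0.08 on the log2 scale (adjusted p = 0.00422), by 0.41 ± 0.11 in batch 1 (adjusted p = 0.0112), and the batch 2 difference of -0.19 ± 0.10 did not pass (adjusted p = 0.128).

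CREB3 had 39.9, 46.5, 34.0 and 42.0 CPM in batch 1 controls and 28.8, 31.9, 31.8 and 29.4 CPM in batch 1 peroxide libraries, with no overlap. In batch 2 the controls had 35.4, 38.8, 44.4 and 40.7 CPM and the peroxide libraries 40.8, 41.4, 40.7 and 42.4 CPM, all within the control range. The log2 difference was -0.41 ± 0.11 in batch 1 (adjusted p = 0.00904), 0.05 ± 0.08 in batch 2 (adjusted p = 0.655) and -0.17 ± 0.08 over both (adjusted p = 0.0959). Their difference between batches, 0.46 ± 0.13, missed the threshold in edgeR's interaction test (adjusted p = 0.0519) and passed without control 3, control 7 or peroxide 2 (lowest adjusted p = 0.0204). The value over both batches passed without control 5 (-0.22, adjusted p = 0.0346) and with total-count scaling (-0.23, adjusted p = 0.0256). In GENCODE 29, 10.5% of CREB3 exon bases overlap GBA2 and TLN1 on the opposite strand. Between batches of peroxide libraries, 31.2% of all genes were called and 4 of the 9 (ERN1, ATF6B, CREB3 and CREB3L2), each higher in batch 2. The log2 ratio of CREB3L2 to CREB3 differed by -0.13 ± 0.10 (exact permutation p = 0.230, adjusted 0.307), with 0.00425 in batch 1 and -0.26 in batch 2.

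Taken batch by batch, 4 of the 9 were called in batch 1 (XBP1 and ERN1 higher, CREB3 and CREB3L2 lower), where 37.6% of all genes were. In batch 2 alone 2 of the 9 were called (XBP1 higher and ATF6 lower), where 38.4% of all genes were.

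BHLHA15 was near the limit of detection. It had 1 read in 1 of 8 controls, out of 80815635 reads in genes, and 15 reads in 7 of 8 peroxide libraries, out of 69483249. The peroxide libraries had 0, 2, 1 and 3 reads in batch 1 and 2, 2, 3 and 2 reads in batch 2. The ratio of its shares of all reads in genes was 17.4, with a counting interval (95%, exact) of 2.68 to 734 that covers counting error only. Without the filter on low counts, edgeR's fit gave a log2 fold change of 3.19 ± 0.85 (adjusted p = 0.00128), a value that depends on the prior count. ERN2, the paralog of ERN1 known from mucosal epithelium, is not among the 10 and also fell below the filter, with 5 reads in controls and 116 in peroxide libraries.

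The genes around the 10 were read from lists of the branches they belong to. These lists were chosen with earlier results of these data known, so their counts describe the branches and do not test them. In the ATF6 target list, 11 of 11 were higher, where 24.1% of all genes tested were. The median log2 fold change was 1.24, while the ATF6 transcript itself fell. Under alternatives other than leaving out 1 library, 8 to 11 of the list were higher. HERPUD1, a component of ER-associated degradation, rose by 3.73 ± 0.19 (adjusted p = 1.48e-12), from 30.9 to 86.8 CPM in controls to 422 to 1086 CPM in peroxide libraries. HSP90B1, the ER form of HSP90, rose by 2.44 ± 0.21 (adjusted p = 3.47e-09) and the co-chaperone DNAJB11 by 2.10 ± 0.16 (adjusted p = 5.42e-10). For HSPA5, the chaperone BiP, the interaction with batch was called (adjusted p = 0.000926), with a log2 rise of 3.12 in batch 1 and 5.22 in batch 2. Its controls lay at 342 to 605 CPM in batch 1 and at 99.6 to 135 CPM in batch 2, which is the reverse of the order for ERN1. The interaction was also called for PDIA4, MANF and SDF2L1. Their log2 values were 0.48, 1.61 and 0.22 in batch 1 and 1.68, 2.86 and 2.22 in batch 2.

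Of 19 XBP1 target genes, 7 were higher, 1 was lower and 11 did not pass, and the median log2 fold change was 0.09. The 8 of 19 called stand beside 48.3% of all genes called. For PDIA6, counted among the 7, edgeR's interaction with batch was called (adjusted p = 0.0380). Its log2 value was 0.00282 in batch 1 and 0.79 in batch 2. DNAJB9, an ER co-chaperone, rose by 3.04 ± 0.16 (adjusted p = 2.98e-12), and its range went from 7.97 to 13.5 CPM in controls to 52.3 to 158 CPM in peroxide libraries without overlap. DNAJC3, an ER co-chaperone and inhibitor of PERK, rose by 1.19 ± 0.17, DERL2 by 0.70 ± 0.12 and the ubiquitin ligase gene SYVN1 by 0.46 ± 0.08. EDEM1, a lectin of ER-associated degradation, fell by 0.24 ± 0.08 (adjusted p = 0.0208). Its call was lost in batch 1 alone (-0.15, adjusted p = 0.351) and with no batch term (adjusted p = 0.267). It was also lost without control 1 and peroxide 5 together (adjusted p = 0.0601). Leaving out 1 library in turn gave 6 to 8 higher and 1 to 3 lower.

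Of 6 listed transcripts known to be cut by IRE1α in regulated decay, 4 had enough reads to be tested. Of these 4, 3 were lower, where 24.3% of all genes were, and 0 were higher. BLOC1S1, the best known of them, had 14.0 ± 1.90 CPM in controls and 7.94 ± 2.01 CPM in peroxide libraries and fell by 0.84 ± 0.14 on the log2 scale (adjusted p = 2.47e-05). PMP22 fell by 0.52 ± 0.13 (adjusted p = 0.00221) and HGSNAT by 0.19 ± 0.08 (adjusted p = 0.0474), and COL6A1 was at 0.40 ± 0.19 (adjusted p = 0.0912). PMP22 did not pass in batch 2 alone (-0.33, adjusted p = 0.177). HGSNAT did not pass in either batch alone or with no batch term (adjusted p = 0.156). Leaving out any one of control 1, 3, 6 and 7 and peroxide 2, 3, 5, 7 and 8 ended its call as well (adjusted p up to 0.100), as did leaving out control 1 and peroxide 5 together (adjusted p = 0.199). The median log2 fold change of the 4 was -0.35.

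Of 11 tested partners of IRE1α and of the ligation complex, 3 were higher and 2 were lower, with a median of -0.05, and 5 of 11 is near the 48.3% of all genes called. TMBIM6, an ER membrane protein known to restrain IRE1α, rose by 0.52 ± 0.06 (adjusted p = 1.49e-07), and RTRAF, a subunit of the ligase complex, by 0.21 ± 0.05 (adjusted p = 0.00179). MAPK8, which encodes the kinase JNK1, also rose, by 0.17 ± 0.07 (adjusted p = 0.0389). MAP3K5, which encodes the TRAF2-bound kinase ASK1, fell by 0.42 ± 0.09 (adjusted p = 0.000321), and C2orf49, another ligase subunit, by 0.39 ± 0.08 (adjusted p = 0.000492). RTCB and its helicase partner DDX1, at 0.01 ± 0.06 (adjusted p = 0.929), did not pass.

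Of 12 genes of the Golgi proteases and the COPII coat, which carries ATF6 out of the ER, 1 was higher and 3 were lower, beside 24.1% and 24.3% of all genes. MBTPS2, the site-2 protease, fell by 0.59 ± 0.07 (adjusted p = 7.99e-07), the coat gene SEC23A by 0.30 ± 0.07 (adjusted p = 0.000975) and MBTPS1, the site-1 protease, by 0.18 ± 0.05 (adjusted p = 0.00665). SEC23A did not pass in batch 2 alone (adjusted p = 0.0594), nor MBTPS1 in batch 1 alone (adjusted p = 0.151) or with no batch term (adjusted p = 0.115). SEC31A was higher by 0.15 ± 0.05 (adjusted p = 0.0245). Its call was lost in 5 of 16 fits without 1 library and under 6 of 10 other alternatives. These included each batch alone, total-count scaling (adjusted p = 0.160) and leaving out control 1 and peroxide 5 (adjusted p = 0.0842).

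**Figure D3:**
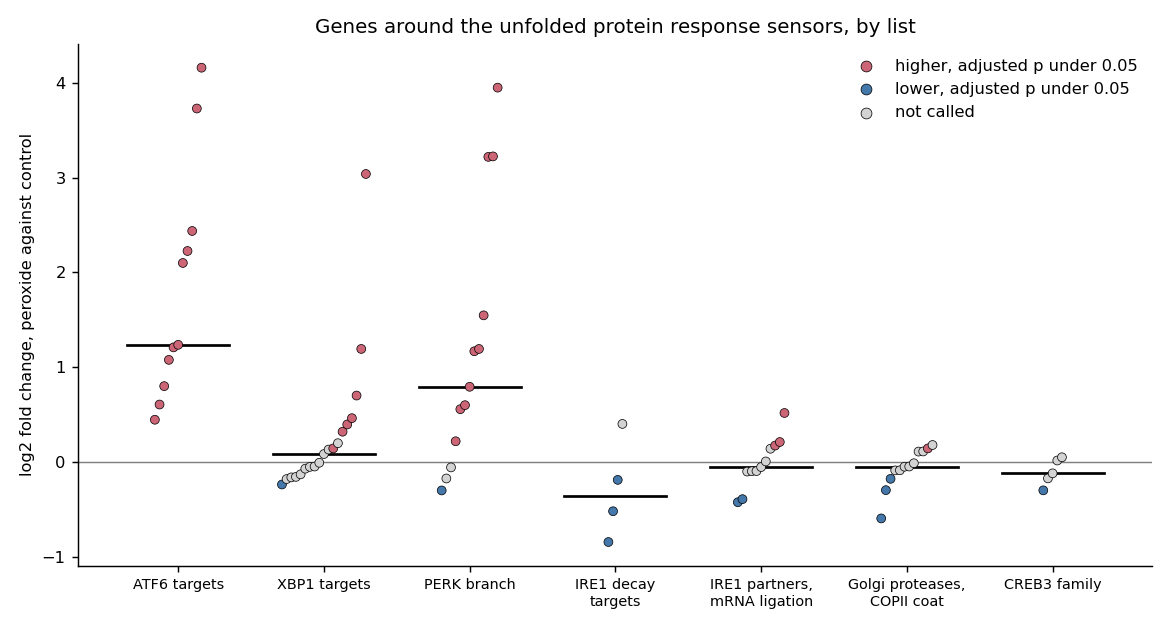
Log2 fold change of peroxide against control for each tested gene of 7 lists around the sensors; filled red and blue points passed an adjusted p of 0.05 as higher and lower, grey points did not, and lines are medians. All 11 ATF6 targets lie above 0 and 3 of 4 IRE1α decay targets lie below it.

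In the PERK branch list, 10 of 13 genes were higher, where 24.1% of all genes were, and 1 was lower, with a median of 0.79. Under alternatives other than leaving out 1 library, 7 to 10 were higher. The list also holds EIF2AK1, EIF2AK2 and EIF2AK4, which encode other kinases of eIF2α. DNAJC3 is counted here and among the XBP1 targets. Which kinase stood behind these rises was not tested. ATF4, the factor whose translation PERK favours, rose by 1.17 ± 0.07 (adjusted p = 1.43e-11), from 461 to 535 CPM in controls to 959 to 1438 CPM in peroxide libraries. DDIT3, the factor CHOP, rose by 3.95 ± 0.32 (adjusted p = 1.62e-09), by 5.52 in batch 1 and 2.84 in batch 2, and the phosphatase subunit gene PPP1R15A by 3.22 ± 0.20 (adjusted p = 2.84e-11), by 3.94 and 2.57 in the batches. ATF3, a stress-induced factor, rose by 3.22 ± 0.33 (adjusted p = 5.11e-08), by 4.67 and 2.00. CHAC1, counted among the 10, had a log2 difference of 3.55 in batch 1 and of -0.05 in batch 2. EIF2AK4, which encodes the amino acid sensor kinase GCN2 of the same eIF2α step, fell by 0.30 ± 0.06 (adjusted p = 0.000123).

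The control batches stood apart in the PERK branch too. DDIT3 lay at 5.48 to 9.01 CPM in batch 1 controls and 29.9 to 36.2 CPM in batch 2 controls, and PPP1R15A at 21.0 to 30.0 and 50.8 to 75.1 CPM. The levels of ERN1, DDIT3 and PPP1R15A were thus all higher in batch 2 controls, and the interaction was called for DDIT3 (adjusted p = 7.81e-08), ATF3 (adjusted p = 6.50e-09), PPP1R15A (adjusted p = 0.00197), CHAC1 and NFE2L2. EIF2AK3 itself showed no such split, with a control batch difference of -0.06 ± 0.11 (adjusted p = 0.704).

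Of 5 genes of the CREB3 family, CREB3L2 alone passed, as lower, and none passed as higher, beside 24.3% and 24.1% of all genes. CREB3L3 was at 13.6 ± 2.79 CPM in controls (log2 difference -0.12, adjusted p = 0.411), CREB3L4 at 24.5 ± 8.36 CPM (0.05, adjusted p = 0.679, and -0.01 with total-count scaling) and CREB3L1 at 1.51 ± 0.31 CPM (0.02, adjusted p = 0.998).

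The 3 genes whose level over the 16 libraries was most like that of XBP1 were DNAJC3, ZBTB5 and SELENOK, out of 11016 genes that averaged 5 CPM or more. Likeness was the root mean square difference of log2 CPM, each gene centred on its own mean, and it was 0.208 for DNAJC3, 0.222 for ZBTB5 and 0.229 for SELENOK. SELENOK encodes an ER membrane selenoprotein, with a log2 difference of 1.05, and ZBTB5 a zinc finger protein, with 1.26. Both were picked for their likeness to XBP1 over all libraries, which fixes the direction of these differences.

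Among the 8 peroxide libraries, XBP1, EIF2AK3 and ATF6 were each highest in peroxide 6 and lowest in peroxide 8. This held for 3 of the 9 genes and 7 of the 11 ATF6 targets, and for 1.60% of all genes tested. All 11 ATF6 targets were highest in peroxide 6, against 13.3% of all genes. Peroxide 6 and peroxide 8 were looked at because they held the extremes of XBP1, which is itself counted. These shares describe the pattern and do not test it. Peroxide 8 had 42.8% of reads not aligned uniquely and peroxide 6 had 35.7%, and the part of this share in the pattern was not tested.

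**Figure D4:**
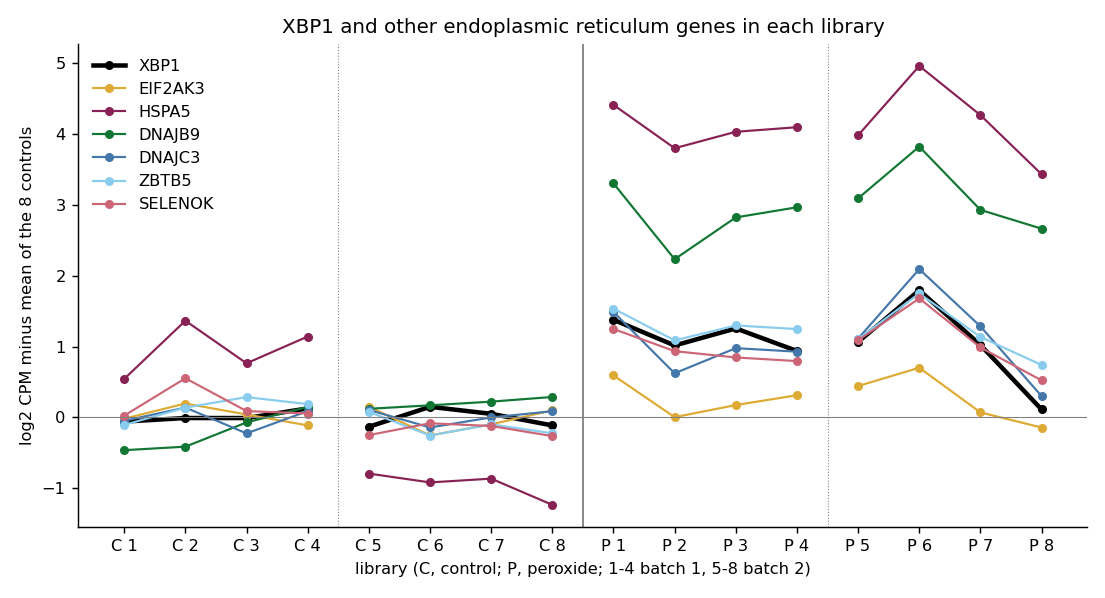
Log2 CPM minus the mean of the 8 controls for XBP1, EIF2AK3, HSPA5, DNAJB9 and the 3 genes most like XBP1 in each of the 16 libraries; lines only join the points of a gene, since libraries of a group have no order. XBP1, DNAJC3, ZBTB5 and SELENOK run close together and are highest in peroxide 6, while HSPA5 in controls is above its mean in batch 1 and below it in batch 2.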

How the data were processed

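RNA sequencing counts of 16 Jurkat E6-1 libraries were used, 8 per group. The deposited tables give raw read counts for each gene in whole numbers; per the submitters' processing notes, STAR 2.7.1a, HTSeq 0.6.1 and the build hg19 were used. The sources used here do not say whether strand was used. Gene identifiers matched symbols for 99.5% and GENCODE 29, an annotation of GRCh38, to the version for 68.0%, so no coordinates were read from the counts. The 5 rows that name no gene held 43.5% to 57.6% of reads and were left out of library sizes and tests.

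Genes were kept with edgeR's filterByExpr on groups (edgeR 4.0.16, R 4.3.3), scaled by TMM and tested by quasi-likelihood on group, with a term for batch. P-values were adjusted by Benjamini-Hochberg over 14092 genes. Errors of log2 fold changes are SE, the size divided by the square root of F. Levels are TMM-scaled CPM, with mean ± SD over 8 libraries. Ratios within a library used a pseudocount of 0.5. No 2 libraries of a group and batch agreed within sampling noise (chi-square per degree of freedom 2.97 to 18.2). The test was also run on simulated counts, with no batch difference in controls and few changed genes. These data differ in both respects, so that run says little of the calls here. Alternatives were total-count scaling, DESeq2 1.42.0, limma-voom (limma 3.58.1), other filters, no batch term, a replicate block, each batch alone and leaving out each library; leaving out control 1 and peroxide 5 together was chosen after seeing the data.

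The 10 genes and all lists were chosen with earlier results of these data known. Named were the 10 genes, up to 4 genes per list with the smallest p at 1 CPM or more, up to 5 genes called against the majority of a list, and the 3 genes most like a member called at a log2 fold change of 1 or more. ERN2, MAPK8, DDX1, CREB3L1 and the genes named only for an interaction were chosen after their values were seen.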

Additional observations from a re-analysis of the deposited data

Results flagged for a closer look

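ERN1 differed in its response between batches in edgeR's test: the log2 fold change in batch 2 minus that in batch 1 was -1.18 (adjusted p = 0.000209). The controls differed between the batches as well, and the sources used here do not say what a batch was. CREB3L2 in controls was lowest in control 1, at 36.4 CPM, apart from the other 7 controls. Without control 1, CREB3L2 fell by 0.34 ± 0.08 on the log2 scale (adjusted p = 0.00140). BHLHA15 in controls was highest in control 7, at 0.0786 CPM, which is its single read in controls. In all, 28 groups of 8 values were looked at for a library apart from the rest, and chance marks about 1 in 20 such groups.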

How the results depend on the processing

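Over 72 results, 581 values under alternatives other than leaving out 1 library kept their direction and their side of the threshold, or stayed within 1.5 times for counts. Others weakened (31), strengthened (9), reversed (8) or moved (46), and the cause was not tested. XBP1 was called as higher in all of them, at a log2 fold change of 1.07 to 1.14. Total-count scaling gave 1 of the 9 genes higher and 6 lower. By list it gave 0 sensors higher and 2 lower, 5 IRE1α partners lower, 4 XBP1 targets lower, 0 coat and protease genes higher and 5 lower, 3 PERK branch genes lower and 2 of the CREB3 family lower, with CREB3L4 reversed at -0.010. DESeq2 gave 2 sensors higher and 2 XBP1 targets lower, and limma-voom and a filter at a mean of 1 CPM each gave 2 XBP1 targets lower. With no filter, 5150 of all genes and 4 of the 10 genes were higher (BHLHA15 and ERN1 added). The lists then had 3 sensors higher, 3 XBP1 targets lower, 0 coat and protease genes higher, 2 PERK branch genes lower and 2 of the CREB3 family lower, and CREB3L4 was at -0.00162. With no batch term 1 of the 9 was higher. The lists then had 0 sensors, 1 IRE1α partner, 4 XBP1 targets and 0 coat and protease genes higher, and 0 XBP1 targets and 1 plasma cell gene lower.

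Batch 1 alone gave 0 sensors lower, 1 IRE1α partner lower, 4 XBP1 targets higher and 2 of the CREB3 family lower, and the CREB3L2 to CREB3 ratio reversed to 0.00425. Batch 2 alone gave 1 of the 9 higher and 1 lower, 1 IRE1α decay target lower, 2 PERK branch genes lower, 0 of the CREB3 family lower and 1 plasma cell gene lower. There ERN1 (-0.23), CREB3 (0.051), RTCB (0.026), CREB3L4 (-0.022) and the ERN1 to EIF2AK3 ratio (-0.53) reversed. Without control 1 and peroxide 5, 1 of the 9 was higher, with 0 sensors and 0 coat and protease genes higher, and 0 XBP1 targets and 1 plasma cell gene lower.

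Leaving out each of the 16 libraries gave 1 to 3 of the 9 higher and 1 to 2 called for the interaction of batch. By list the ranges were 0 to 2 sensors higher, 1 to 3 XBP1 targets lower, 2 to 3 IRE1α decay targets lower, 0 to 2 coat and protease genes higher, 1 to 2 PERK branch genes lower (2 without peroxide 1), 1 to 2 of the CREB3 family lower (2 without control 5) and 1 to 2 plasma cell genes lower. The ratios ranged from -0.070 to 0.26 for ERN1 to EIF2AK3, reversed without control 1, control 2, control 3 or peroxide 7, and from -0.21 to -0.13 for ATF6 to ATF6B.

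No clear pairing of libraries by replicate number was seen, though the correlations cannot exclude a weak one. Deviations of libraries with the same number correlated at -0.22 to 0.29, and 3 of 8 pairs correlated best with their own number. With the replicate block in place of batch, 3313 genes were higher and 3374 lower, 1 of the 9 was higher, 0 sensors were higher and 3 XBP1 targets were lower. EIF2AK3 was then at 0.29 (adjusted p = 0.0533). Depth limits BHLHA15, with 15 reads in all peroxide libraries.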

Other observations

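Of the plasma and secretory cell genes listed beside BHLHA15, 2 of 5 tested were higher and 2 were lower, where 48.3% of all genes were called. SDC1, which encodes the plasma cell surface marker CD138, went from 10 reads over the 8 controls to 255 reads over the 8 peroxide libraries, at 0 to 0.314 CPM and 2.41 to 5.49 CPM. It rose by 4.82 ± 0.33 on the log2 scale (adjusted p = 1.51e-10). TENT5C, an RNA poly(A) polymerase gene known in plasma cells and myeloma, rose by 1.39 ± 0.12 (adjusted p = 2.38e-09), from 119 ± 43.2 to 303 ± 86.2 CPM. MZB1, an ER protein of B cells and plasma cells, fell by 0.21 ± 0.08 (adjusted p = 0.0365) from 349.7 ± 46.0 CPM. That call was lost without control 1, 2 or 8 or peroxide 1, 3, 4 or 6, left out one at a time (adjusted p up to 0.0842), with no batch term (adjusted p = 0.182), in batch 2 alone (-0.10, adjusted p = 0.440) and without control 1 and peroxide 5 together (adjusted p = 0.0761). RAB3D, a secretory vesicle gene, fell by 0.65 ± 0.12 (adjusted p = 0.000112). PRDM1, the factor that directs plasma cell formation, stood at 0.20 ± 0.19 (adjusted p = 0.395). JCHAIN, TNFRSF17 and IRF4 were below the filter, with group means of 0.0725 and 0.128 CPM for JCHAIN, 0 and 0.0299 CPM for TNFRSF17 and 0.0680 and 0.665 CPM for IRF4 in controls and peroxide libraries.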
